A study of Solanum lycopersicum with 4 samples.

Results

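The comparison set the leaf RNA-seq library titled 48 h at 10 °C against the library titled 0 h, chosen by their titles, which are 2 of the 4 libraries in the series. Both libraries came from tomato (Solanum lycopersicum, cultivar Moneymaker) at 3 weeks of age, from the true leaves that formed first. Per the labels' protocols, the 48 h plants had spent 48 h at 10 °C in dim light of 40 µmol m-2 s-1, while seedlings of both libraries had grown up at 25 °C with brighter light, 100 µmol m-2 s-1. Days had 12 h of light in both settings. The labels name 10 °C for the 0 h library too, with an exposure of 0 h, and do not give its conditions at harvest. By the protocols, the 48 h leaves had less light as well as less warmth than the growth chamber gave, so cold and lower light cannot be told apart here, and the 48 h leaves were also 48 h further in the experiment. Each time has 1 library, so no difference below has a replicate or a p-value, and whether a library pooled several plants is not given in the sources used here.

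Tomato is a crop of warm origin that is damaged by chilling well above freezing. Cold slows the enzymes that use absorbed light energy more than it slows light absorption itself, so chilled leaves commonly adjust their photosynthetic pigments, membranes and sugars. Leaves that survive the first days acquire some tolerance, a process called chilling acclimation, which the series was set up to follow. In a whole leaf, fewer cells of a type and less RNA per cell cannot be told apart.

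The libraries held 37.4 M unique reads at 48 h and 38.5 M at 0 h (M, 1000000). Levels are given as CPM (counts per 1000000 reads of a library scaled by TMM, a factor that equalises the bulk of genes), and differences as log2 ratios of 48 h over 0 h with a small pseudocount. A gene was compared if it was listed in all 4 files and averaged at least 5 CPM over them, which held for 13840 of the 26219 genes listed in any file. The gene just inside that limit averaged 5.00 CPM, with 227 reads at 48 h and 59 at 0 h, and the gene just outside had 225 reads at 48 h and 179 at 0 h. Folds of single genes leave the pseudocount out and carry exact Clopper-Pearson intervals at the 95% level, for counting error only. The leaf label could not be checked against leaf marker genes, because the names found in the files include none of them.

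Most transcripts differed little between the libraries. Within 2-fold of each other at 48 h and 0 h were 11278 genes, 81.5% of those compared. The central 50% of genes had log2 ratios between -0.45 and 0.48, and the outermost 1% on each side lay beyond -2.20 and 2.45. Past 2-fold in either direction lay 2562 genes (18.5%), past 4-fold 464 (3.35%), past 8-fold 107 (0.773%) and past 16-fold 27 (0.195%). The 4-fold set held 285 genes higher at 48 h (2.06%) and 179 lower (1.29%). The 8-fold set held 68 higher (0.491%) and 39 lower genes (0.282%), and the 16-fold set 20 higher (0.145%) and 7 lower ones (0.0506%). Higher genes were thus 61.4% of the 4-fold set, but 77.6% with plain library totals. That scaling moved the median log2 ratio over all genes to 0.26, in place of 0.0046.

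**Figure D1:**
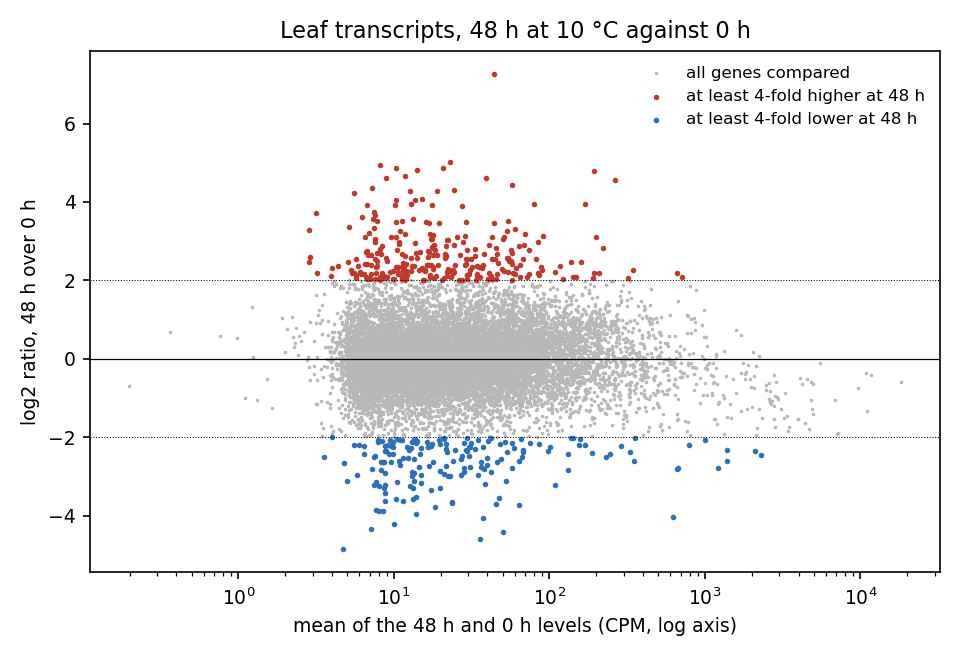
The log2 ratio of 48 h over 0 h (vertical axis) is plotted against the mean of the 48 h and 0 h levels (CPM, log axis), with 1 point for each of the 13840 genes compared and dotted lines at 4-fold. The 285 higher genes (red) and 179 lower genes (blue) occur across nearly the whole range of levels, and the most abundant genes at the right lie mainly below 0.

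The identifiers in the files are not paired with names, but words of a protein database match were left in unlabelled columns of the 3 h and 24 h files. They stood beside 73 genes in the 3 h file, of which 58 carried a readable protein name. In the 24 h file they stood beside 4 of the 73, and for all 4 they matched the end of the words in the 3 h file. Most of the 58 are cytochrome P450 enzymes or receptor kinases. The names below are those of the closest database protein, not tested assignments, and the 58 are not a sample of the leaf transcriptome. Of the 58 genes, 38 passed the expression limit and are compared here. None of the 38 was at least 4-fold higher, against 2.06% of all genes compared, and none was at least 4-fold lower, against 1.29%. At least 2-fold higher was 1 of the 38, against 10.0% of all genes compared, and at least 2-fold lower were 5, against 8.48%. The median log2 ratio of the 38 was -0.0023, beside 0.0046 over all genes compared. With plain library totals 1 was 2-fold higher and 3 were 2-fold lower.

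Among the genes of carotenoid and abscisic acid metabolism, the zeaxanthin epoxidase transcript was lower at 48 h and the other transcripts that could be compared were not. Zeaxanthin epoxidase turns zeaxanthin into violaxanthin by way of antheraxanthin. It thereby removes the pigment that helps leaves shed excess light energy, and its product is a precursor of abscisic acid, the hormone of water and cold stress. The gene matched to it (Solyc02g090890.2.1, chromosome 2) held 12170 reads at 48 h, or 292 CPM, and 28140 at 0 h, or 779 CPM. It was 2.67-fold lower at 48 h (2.61 to 2.73). Between these times it held 24302 reads at 3 h (750 CPM) and 9999 at 24 h (263 CPM), so its level at 3 h was near that at 0 h and its level at 24 h near that at 48 h. Per length, its deposited RPKM was 129 at 48 h and 289 at 0 h. With plain library totals its log2 ratio was -1.16, in place of -1.42.

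The pair of P450 carotene hydroxylases, which make lutein and other xanthophylls, moved little. The CYP97A29 match (Solyc04g051190.2.1) had 4620 reads at 48 h and 3318 at 0 h, 1.21-fold higher (1.15 to 1.26). The CYP97C11 match (Solyc10g083790.1.1) had 2447 reads at 48 h and 1892 at 0 h, 1.12-fold higher (1.05 to 1.19). In RPKM, which allows genes to be set side by side, zeaxanthin epoxidase at 129 stood above CYP97A29 at 54.3 and CYP97C11 at 39.8 in the 48 h library, and it also led at 0 h, with 289 beside 37.8 and 29.9.

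Abscisic acid 8'-hydroxylase inactivates abscisic acid, and the files name a pair of such genes, both on chromosome 8. One of them, the CYP707A1 match (Solyc08g005610.2.1), had 207 reads (4.96 CPM) at 48 h and 132 (3.65 CPM) at 0 h. It was 1.36-fold higher at 48 h (1.09 to 1.70). Between these times it had 3460 reads (106.8 CPM) at 3 h and 122 (3.21 CPM) at 24 h. The 48 h and 0 h libraries thus sit on either side of a high value at 3 h. Through that value alone the gene passed the limit of 5 CPM. The other, the CYPA3 match (Solyc08g075320.2.1), was not compared, since it had no read at 0 h and reached only 2.56 CPM at 48 h. It had 16 reads at 3 h, 9 at 24 h and 107 at 48 h. Set against the 3 reads that a count of 0 allows in the 0 h library, it was 30.9-fold higher at 48 h. The lower limit of its exact counting interval was 24.7-fold higher.

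Of 8 genes matched to enzymes of sterol synthesis or to receptors and co-receptors of brassinosteroids, the steroid hormones that promote leaf growth, 1 was 2-fold lower at 48 h and the other 7 lay within 2-fold. Their median log2 ratio was 0.03. The sterol 22-desaturase gene (Solyc02g070580.1.1, RefSeq symbol CYP710A11), whose enzyme makes stigmasterol, a sterol of cell membranes, from sitosterol, had 764 reads (18.3 CPM) at 48 h and 1801 (49.8 CPM) at 0 h. It was 2.72-fold lower at 48 h (2.50 to 2.97). It had 348 reads at 3 h and 844 at 24 h, so its lowest level was the one at 3 h. The gene matched to obtusifoliol 14alpha-demethylase (Solyc01g008110.2.1, RefSeq symbol CYP51), an earlier step of the same pathway, had 21895 reads at 48 h and 17833 at 0 h, 1.06-fold higher (1.04 to 1.08).

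With TMM scaling, the brassinosteroid receptor transcript did not differ beyond its counting interval. The tBRI1 match (Solyc04g051510.1.1) had 3994 reads at 48 h and 3352 at 0 h, a ratio of 1.03 (0.985 to 1.08). SERK proteins are receptor kinases that act as co-receptors of BRI1 and of immune receptors in Arabidopsis, and the files name 3 of them. SERK3A (Solyc10g047140.1.1) had 1067 reads at 48 h and 645 at 0 h, 1.43-fold higher (1.30 to 1.58). SERK1 (Solyc04g072570.2.1) had 1120 reads at 48 h and 963 at 0 h, a ratio of 1.01 (0.923 to 1.10). SERK3B (Solyc01g104970.2.1) had 1161 reads at 48 h and 1150 at 0 h, 1.14-fold lower (1.05 to 1.24). SERK3A thus lay above 0 and SERK3B below it, while SERK1 did not differ beyond its counting interval. With plain library totals tBRI1, SERK1 and SERK3B had log2 ratios of 0.30, 0.26 and 0.06, where the median of all genes was 0.26. BRI1-like 2 (Solyc04g008430.1.1) had 354 reads at 48 h and 255 at 0 h, 1.20-fold higher (1.02 to 1.42). A putative brassinosteroid receptor kinase gene (Solyc09g015520.2.1) had 872 reads at 48 h and 786 at 0 h, a ratio of 0.961 (0.872 to 1.06).

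Another 12 receptor kinases, proteins that sense peptides or microbial molecules at the cell surface, had a median log2 ratio of -0.20 (0.05 with plain totals, where all genes had 0.26), with 2 of them at least 2-fold lower at 48 h and none 2-fold higher. The ERECTA match (Solyc08g061560.2.1), a receptor that controls organ shape and stomatal spacing in Arabidopsis, had 1958 reads (46.9 CPM) at 48 h and 3693 (102 CPM) at 0 h. It was 2.18-fold lower at 48 h (2.06 to 2.30), with 2720 reads at 3 h and 2141 at 24 h between these times. The CLAVATA1 match (Solyc02g091840.2.1), a receptor type known from meristem control in Arabidopsis, had 4501 reads at 48 h and 6087 at 0 h, 1.56-fold lower (1.50 to 1.62). The ERL2-like gene (Solyc03g007050.2.1), a relative of ERECTA, had 859 reads at 48 h and 850 at 0 h, 1.14-fold lower (1.04 to 1.26), but had a log2 ratio of 0.06 with plain totals. HSL2-like (Solyc02g091860.2.1), named for a receptor of the peptide that triggers organ shedding in Arabidopsis, had 816 reads at 48 h and 519 at 0 h, 1.36-fold higher (1.22 to 1.52). BAM3 (Solyc01g080770.2.1) had 1201 reads at 48 h and 1038 at 0 h, a ratio of 1.00 (0.921 to 1.09). A probable receptor kinase gene on chromosome 8 (Solyc08g080830.2.1) had 1511 reads at 48 h and 1924 at 0 h, 1.47-fold lower (1.37 to 1.57). HSL1-like on chromosome 2 (Solyc02g077630.2.1) had 1031 reads at 48 h and 1190 at 0 h, 1.33-fold lower (1.22 to 1.45). A further 3 of the 12, with an FLS2-like pair described next left aside, had log2 ratios between -0.20 and 0.04. With plain library totals the ERECTA match and the second gene at least 2-fold lower, a gene of the FLS2-like pair, had log2 ratios of -0.87 and -0.90 and fell short of 2-fold.

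Genes with the same or a like match differed from each other. FLS2 is the Arabidopsis receptor of bacterial flagellin, and a pair of FLS2-like genes lies close together on chromosome 2 by their identifiers. Solyc02g070910.1.1 had 729 reads at 48 h and 1405 at 0 h, 2.23-fold lower (2.03 to 2.44). Solyc02g070890.2.1 had 243 reads at 48 h and 202 at 0 h, a ratio of 1.04 (0.861 to 1.26). The adjacent identifiers Solyc01g007980.2.1 and Solyc01g007990.2.1 on chromosome 1 both carry a protein kinase match from Ipomoea nil, and they lay in opposite directions. Solyc01g007990.2.1 had 1116 reads (26.7 CPM) at 48 h and 277 (7.66 CPM) at 0 h, 3.49-fold higher (3.06 to 3.99). Solyc01g007980.2.1 had 361 reads (8.65 CPM) at 48 h and 629 (17.4 CPM) at 0 h, 2.01-fold lower (1.76 to 2.30), which the pseudocount brings just within 2-fold. In RPKM the order of the pair differed between the libraries, with 13.4 for Solyc01g007990.2.1 and 4.58 for Solyc01g007980.2.1 at 48 h, against 3.22 and 7.74 at 0 h.

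The match to CYP71AT2v2, a tobacco P450, is shared by 6 genes, 5 of them close together on chromosome 9 and 1 on chromosome 11. Solyc09g092670.2.1 had 1253 reads (30.0 CPM) at 48 h and 3826 (106 CPM) at 0 h, 3.53-fold lower (3.31 to 3.76), the lowest ratio of the 38 named genes. Solyc09g092640.2.1 had 309 reads at 48 h and 339 at 0 h, 1.27-fold lower (1.08 to 1.48). Solyc09g092620.2.1 had 257 reads at 48 h and 139 at 0 h, 1.60-fold higher (1.30 to 1.98). On chromosome 11, Solyc11g006590.1.1 had 1947 reads at 48 h and 1872 at 0 h, 1.11-fold lower (1.04 to 1.18) and with a log2 ratio of 0.10 under plain totals. The other two genes of this match had at most 11 reads in either library. Reads that fit several near-identical copies may have been left out by a count of unique reads, so the values of such families are uncertain.

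Other named genes lay within 2-fold. A protein kinase gene on chromosome 3 (Solyc03g111670.2.1) had 3124 reads at 48 h and 4296 at 0 h, 1.59-fold lower (1.52 to 1.66). The gene matched to stress enhanced protein 1 (Solyc01g107660.2.1), a thylakoid protein related to the light-harvesting proteins and known in Arabidopsis for its response to strong light, had 7701 reads at 48 h and 4801 at 0 h, 1.39-fold higher (1.34 to 1.44). A leucine-rich repeat protein gene (Solyc10g081190.1.1) had 8446 reads at 48 h and 5319 at 0 h, 1.38-fold higher (1.33 to 1.42). A mitochondrial ATP synthase delta' subunit gene (Solyc05g052150.2.1) had 1942 reads at 48 h and 1282 at 0 h, 1.31-fold higher (1.22 to 1.41). MAX1 (Solyc08g062950.2.1), a P450 of strigolactone synthesis, had 209 reads at 48 h and 182 at 0 h, a ratio of 0.995 (0.811 to 1.22). A protein arginine methyltransferase gene (Solyc12g099560.1.1) had 1450 reads at 48 h and 1159 at 0 h, 1.08-fold higher (1.00 to 1.17). In all, 8 of the 38 named genes changed sign under another scaling, each with a log2 ratio of at most 0.20 in size.

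**Figure D2:**
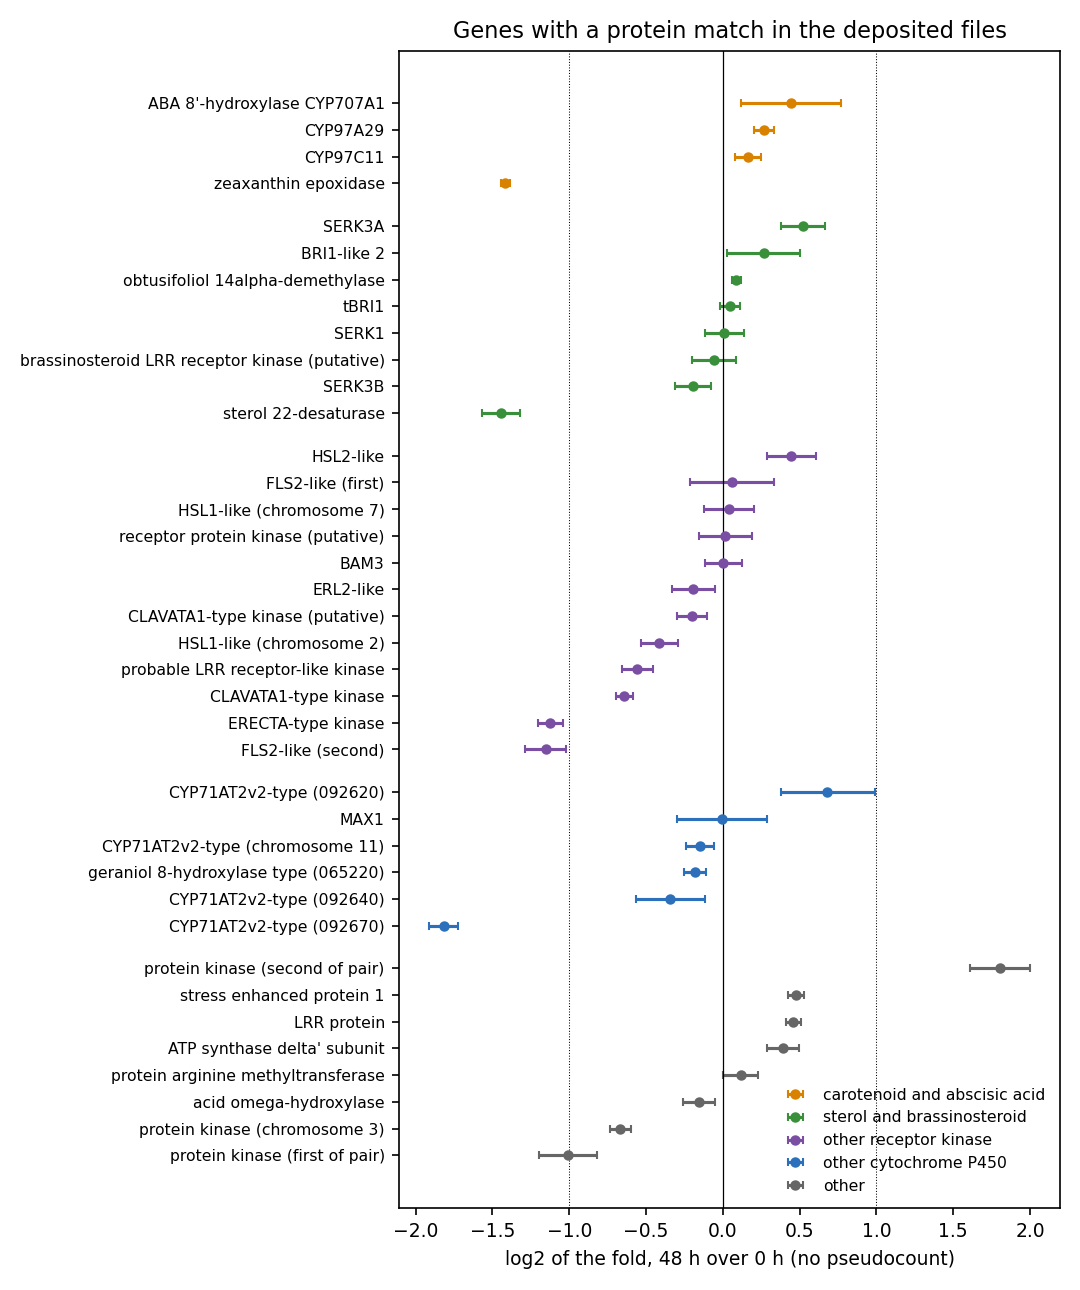
The log2 of the fold of 48 h over 0 h is given for each of the 38 genes with a protein match, without a pseudocount, as points with exact 95% counting intervals, coloured by group. Dotted lines mark 2-fold, and 1 gene lies to the right of them and 6 to the left, of which the kinase Solyc01g007980.2.1 lies almost on the line, with zeaxanthin epoxidase at -1.42 and sterol 22-desaturase at -1.44.

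The largest differences belonged to identifiers for which the files give no name. Solyc03g117860.2.1, on chromosome 3, had the highest of all ratios, with 3666 reads at 48 h and 16 at 0 h. Its reads covered 99.4% of the gene at 48 h and 50.2% at 0 h. Its RPKM was 117 at 48 h and 0.496 at 0 h. The largest gain in CPM was that of Solyc07g055060.2.1 on chromosome 7. It held 56500 reads at 48 h (1354 CPM) and 14538 at 0 h (402 CPM), 3.37-fold higher (3.31 to 3.43). It had 28035 reads at 3 h and 106624 at 24 h, so its highest level was at 24 h.

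The lowest ratio was that of Solyc10g008270.2.1 on chromosome 10, with 8 reads at 48 h and 334 (9.24 CPM) at 0 h. These reads covered 31.7% of the gene at 48 h and 77.7% at 0 h. It had 621 reads (19.2 CPM) at 3 h and 1 read at 24 h, so its highest level was at 3 h. The largest loss in CPM was that of Solyc10g086580.1.1, on the same chromosome. It held 260854 reads at 48 h (6252 CPM) and 569618 at 0 h (15762 CPM). It was 2.52-fold lower at 48 h (2.51 to 2.53). It took 0.698% of all reads at 48 h (0.696% to 0.701%) and 1.48% at 0 h (1.47% to 1.48%). Its level was 15870 CPM at 3 h (514159 reads) and 8235 CPM at 24 h (312951 reads).

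The share of the read pool that was lost was concentrated in fewer genes than the share gained. In percentage points of all unique reads, which need no scaling, 23.3 points lay with other genes at 48 h than at 0 h. Of the share gained at 48 h, 50% was spread over 659 genes, whereas 50% of the share lost lay with 45 genes. Those 659 genes took 24.2% of reads at 48 h and 12.5% at 0 h. Those 45 genes took 12.2% of reads at 48 h and 24.0% at 0 h. The 10 genes with the largest gains made up 4.14% of all gain, and the 10 with the largest losses made up 21.0% of all loss. These genes were chosen by the difference itself, so their shares describe the shift and do not test it. Shares of a library have a fixed sum, so a loss in abundant genes raises the shares of unchanged genes. Over all genes listed, 15698 had a larger share at 48 h and 9705 a smaller one. Scaled log2 ratios were above 0 for 6972 of the genes compared and below 0 for 6868.

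**Figure D3:**
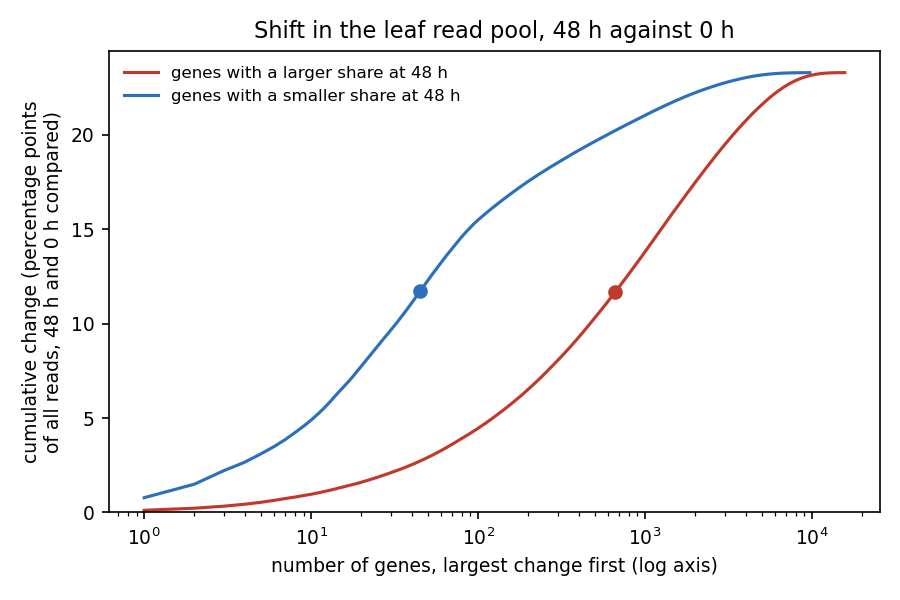
The cumulative change in share of reads between the 48 h and 0 h libraries, in percentage points (vertical axis), is plotted against the number of genes, largest change first (log axis), for genes with a larger share at 48 h (red) and a smaller share at 48 h (blue). The dots mark 50% of the total of 23.3 points, reached by 659 genes that gained and by 45 that lost.

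When abundance was taken from the 3 h and 24 h libraries, which are not part of the comparison, the most abundant genes were again mainly lower at 48 h. Of the 50 most abundant genes, 48 had lower levels at 48 h than at 0 h and 2 had higher ones. Their median log2 ratio was -1.02, with quartiles of -1.45 and -0.60, with 26 of the 50 past 2-fold on the lower side and none on the higher side. Over the 200 most abundant genes the median was -0.51, and over 500 it was -0.24. With plain library totals these 3 medians were -0.74, -0.26 and 0.02, so the median of the 500 most abundant genes changed sign.

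Over the whole range of abundance, shares of genes past 2-fold had no steady slope, but 4-fold differences were most numerous in the lowest group. In 5 groups of equal size, from low to high abundance, at least 2-fold higher at 48 h were 10.2%, 8.96%, 9.32%, 10.9% and 10.8% of genes. At least 2-fold lower were 10.9%, 7.73%, 6.97%, 7.04% and 9.72%. In groups of 2768, at least 4-fold higher were 79, 55, 53, 55 and 43 genes, and at least 4-fold lower 54, 35, 35, 20 and 35. Genes low at 3 and 24 h could pass the limit of 5 CPM through the 48 h or 0 h library. The highest group includes the most abundant genes described above. The medians of the lowest and highest group were -0.09 and 0.03, or 0.16 and 0.30 with plain totals. Gene length had a steadier relation to the ratio among the genes compared. In the shortest group of 5, up to 923 bases, 13.1% of genes lay 2-fold or more above their 0 h level at 48 h, 9.32% were 2-fold lower and the median log2 ratio was 0.15. In the longest group, from 2298 bases, 6.79% were 2-fold higher, 7.23% were 2-fold lower and the median was -0.10. With plain library totals the medians of these groups were 0.40 and 0.16, with the short genes still above the long ones. Without the filter on low counts, the 5 groups from short to long had medians of -0.03, 0.01, -0.03, -0.02 and -0.07. That order was no longer steady, whereas at 20 CPM the shortest and longest groups had 0.17 and -0.04.

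**Figure D4:**
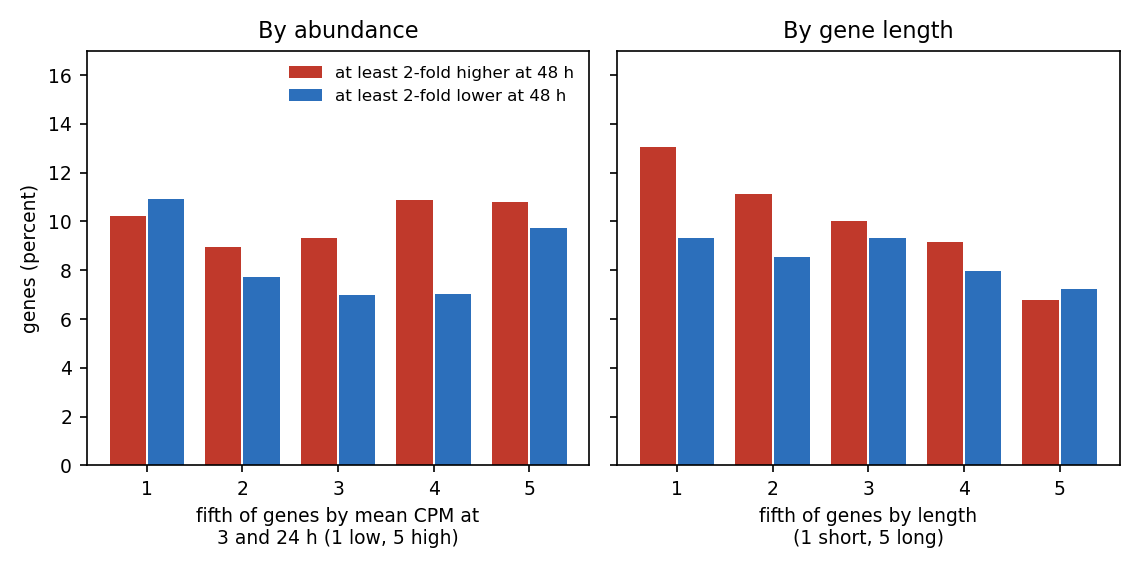
Bars give the percent of genes at least 2-fold higher at 48 h (red) and at least 2-fold lower at 48 h (blue) in 5 groups of equal size, by mean CPM at 3 and 24 h on the left and by gene length on the right. The share of higher genes falls from 13.1% among the shortest genes to 6.79% among the longest, with no such slope by abundance.

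By the chromosome in their identifiers, genes that differed 4-fold were found on all 12 chromosomes. The share of genes at least 4-fold higher ran from 0.958% on chromosome 12 to 3.08% on chromosome 9, and the share at least 4-fold lower from 0.566% on chromosome 7 to 1.59% on chromosome 5. On chromosome 9 there were 31 higher and 14 lower genes among 1006. Chromosome 12 had 8 higher and 13 lower genes among 835, but 13 higher and 9 lower with plain library totals. Median log2 ratios by chromosome lay between -0.05 and 0.04.

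Most genes that differed 4-fold had no neighbour of the same direction, but more of them had one than genes compared in general. Of the 285 higher genes, 42 (14.7%) had another higher gene within 5 positions in the numbering of identifiers, as did 8.91% of all genes compared. Of the 179 lower genes, 26 (14.5%) had another lower gene within 5 positions, as did 5.41% of all genes compared. Between adjacent identifiers the shares were 9.82% of higher genes, beside 2.07% of all genes compared, and 11.2% of lower genes, beside 1.20%. Neighbours may be copies of one gene that share reads, and that was not tested.

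Runs of 3 genes of one direction, each within 5 positions of the next, occurred at 4 places, with none longer. Genes between them that did not differ 4-fold were passed over. Counting adjacent identifiers only, the 2 runs of lower genes remained and neither run of higher genes did. On chromosome 2, 3 adjacent identifiers of equal length, 798 bases each, were among the most abundant transcripts of the leaf. They had 28632, 12865 and 29898 reads at 48 h, against 126615, 76139 and 140718 reads at 0 h. Together they took 0.191% of all reads at 48 h (0.190% to 0.193%) and 0.891% at 0 h (0.889% to 0.894%). Their log2 ratios were -2.35, -2.77 and -2.44. Equal length and position make near-identical copies possible, so the division of reads among the 3 is uncertain, whereas their sum is less so. A run on chromosome 1 held 58, 729 and 140 reads at 48 h, against 582, 2839 and 593 at 0 h. The higher runs lay on chromosomes 3 and 10. That on chromosome 3 had 1247, 2152 and 737 reads at 48 h, against 91, 209 and 122 at 0 h. That on chromosome 10 had 890, 4695 and 4809 reads at 48 h, against 159, 549 and 715 at 0 h.

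The levels at the times between show how the genes chosen at 48 h stood earlier. The 285 higher genes had median levels of 4.62 CPM at 0 h, 7.22 CPM at 3 h, 27.0 CPM at 24 h and 30.4 CPM at 48 h. The 179 lower genes had medians of 34.2 CPM at 0 h, 26.1 CPM at 3 h, 6.05 CPM at 24 h and 5.27 CPM at 48 h. In the order 3 h, 24 h and 48 h, median log2 ratios to 0 h were 0.15, 2.30 and 2.42 for the higher genes and -0.38, -2.38 and -2.50 for the lower genes. All these ratios share the 0 h library, and the genes were chosen by one of them, so the values describe the groups and are no test of lasting change. Together the 285 genes took 2.08% of reads at 48 h and 0.304% at 0 h, and the 179 genes took 0.637% at 48 h and 3.01% at 0 h.

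**Figure D5:**
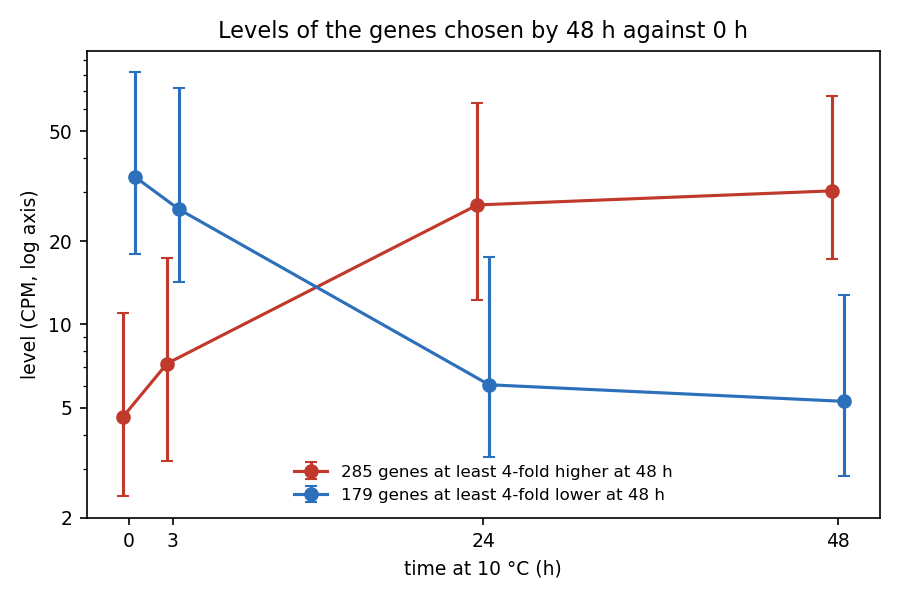
Points are the median level (CPM, log axis) at each time at 10 °C of the 285 genes at least 4-fold higher at 48 h (red) and the 179 at least 4-fold lower (blue), with bars from the lower to the upper quartile of genes and the points set slightly apart. Median levels at 24 h, 27.0 and 6.05 CPM, lay near those at 48 h, 30.4 and 5.27 CPM.

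Reads lay along most of the gene for most of the called genes. In the 48 h library 247 of the 285 higher genes had reads over at least 90% of their length, and 4 had reads over less than 50%. In the 0 h library 139 of the 179 lower genes reached 90%, and 3 were under 50%.

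The order of the most abundant transcripts per length also shifted. Of the 50 genes with the highest RPKM in each library, 38 were in both lists and 12 in only one of them on either side, and of the 500 highest, 362 were in both. The RPKM that a gene needed to be among the top 50 was 1435 at 48 h and 2601 at 0 h, whereas for the top 500 it was 278 at 48 h and 220 at 0 h.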

How the data were processed

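Per the file headers, each deposited file listed genes with a unique read count, a length, the percent of that length covered by reads, and RPKM, the unique reads per kilobase and per 1000000 unique reads of the library, as the authors computed them. The deposited counts summed to the total in each header, and genes with no read were left off. Which aligner, counter, strand setting, annotation and build made them is not given in the sources used here. Deposited RPKM and coverage percent were used only to describe levels between genes and the spread of reads.

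Counts were scaled over the 4 libraries with TMM (edgeR 4.0.16, R 4.3.3), with factors of 1.12 at 48 h and 0.94 at 0 h. Ratios were differences of log2(CPM + 0.135), 0.135 CPM being 5 reads, which understates the change of low genes. The computation of fold calls, not the calls themselves, was checked on simulated counts with counting error alone. No edgeR test was run. At 1 library a time no spread between plants can be estimated, and intervals hold counting error alone; without molecular identifiers, reads may be copies of one molecule.

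None of the 41476 genes in the RefSeq table (SLM_r2.1) carried the files' identifiers. Names came from words in the deposited files, and RefSeq symbols from the protein accessions among those words, of which 6 of 6 were found, 5 in the same version. By rule, named were the 15 highest and 15 lowest ratios among the 38 named genes compared, and 4 identifiers without a name (highest and lowest ratio, largest gain and loss in CPM); others were named after their values were seen. The planned functional lists need product names for all genes and were not used. The groups of named genes were formed after the values were seen. The comparison, lists and rules were chosen with earlier results of these data known. Chromosomes and neighbours were read from the identifiers. Alternatives were DESeq2 1.42.0 size factors, plain totals, TMM on the pair of libraries alone, other pseudocounts and other filters.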

Additional observations from a re-analysis of the deposited data

Results flagged for a closer look

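Genes without a read in one library entered no comparison, but many carried reads in the other. A count of 0 leaves up to 3 reads possible. Of 1994 genes with no read at 0 h, 1178 had reads at 48 h and 213 had more than 3. Of 1747 genes with no read at 48 h, 931 had reads at 0 h and 114 had more than 3. Of the 213 genes, 28 also had no read at 3 h and 24 h, and of the 114 genes, 11 had none at those times. The highest counts were 318 reads at 48 h and 73 reads at 0 h. Among the genes with a protein match, Solyc08g075320.2.1 (abscisic acid 8'-hydroxylase CYPA3) had 107 reads at 48 h and none at 0 h, and Solyc06g076800.2.1 (CYP86A33, a fatty acid omega-hydroxylase) had 4 reads at 48 h and none at 0 h.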

How the results depend on the processing

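No paired analysis was possible because there was a single library per time, and for the same reason no replicate could be left out. Scaling by DESeq2 size factors, TMM on the 48 h and 0 h libraries alone, and pseudocounts of 0.5 and 25 reads kept all 8-fold, 4-fold and 2-fold counts, and the counts of genes with a called neighbour, within 1.5 times. Plain library totals gave 2162 genes 2-fold higher and 692 lower, 427 genes 4-fold higher and 123 lower, and 15 lower genes with a lower neighbour. Without a filter on low counts there were 2348 genes 2-fold higher and 2245 lower, 545 genes 4-fold higher and 337 lower, 128 genes 8-fold higher and 70 lower, and 135 higher and 73 lower genes with a neighbour of their direction. With at least 20 CPM these numbers were 783 and 616, 134 and 86, 31 and 12, and 10 and 5. The filters compare more or fewer genes, 22488 without a filter and 7490 with at least 20 CPM, which by construction moves counts. Higher genes with a higher neighbour were 42 of 285 in the main setting, 135 of 545 unfiltered and 10 of 134 at 20 CPM. Lower ones were 26 of 179, 73 of 337 and 5 of 86 in that order, so the neighbour shares also fell with a stricter filter. The share over all genes compared under these filters is not given here. The median log2 ratio of all genes was 0.030 with DESeq2 size factors, 0.26 with plain totals, 0.022 with TMM on the pair, -0.031 without a filter and 0.042 with at least 20 CPM. Absent genes taken as 0 added no gene. With a limit of 10 reads, 47 genes were listed at 48 h with no read at 0 h, and 22 the other way. Shares of the read pool do not depend on scaling or pseudocount. At low counts a pseudocount of 25 reads brought Solyc03g117860.2.1 to 6.31 and Solyc10g008270.2.1 to -3.51 in log2. Under plain totals the kinase Solyc01g007990.2.1 reached 2.03 and so passed 4-fold. The cause of the differences between scalings was not tested.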

Other observations

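Of the 58 genes with a protein match, 20 were too low to be compared, and 11 of these had at most 7 reads in each of the 48 h and 0 h libraries. The gene matched to cytochrome P450 94A1 (Solyc06g074420.1.1), of a family that oxidises fatty acids, had 20 reads at 48 h and 58 at 0 h, 3.35-fold lower (1.98 to 5.88). A receptor kinase gene (Solyc03g115610.2.1) had 114 reads at 48 h and 38 at 0 h, 2.60-fold higher (1.79 to 3.86). A CLAVATA1-type kinase gene on chromosome 9 (Solyc09g064520.2.1) had 120 reads at 48 h and 252 at 0 h, 2.42-fold lower (1.94 to 3.04). The HSL1-like gene on chromosome 3 (Solyc03g006300.1.1) had 135 reads at 48 h and 207 at 0 h, 1.77-fold lower (1.42 to 2.22), whereas that on chromosome 7 (Solyc07g053600.2.1), which passed the limit, had 686 reads at 48 h and 577 at 0 h, a ratio of 1.03 (0.920 to 1.15).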
